A study of Mus musculus with 8 samples.

Results

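The TGF-beta, BMP and myostatin pathway was followed through 47 genes, chosen by name from the ligands, receptors, antagonists, latency proteins, Smads, Id targets and Smad corepressors of the pathway. All 47 were found among the 21911 protein-coding genes of the GENCODE M21 annotation of the mouse genome build mm10. Of the 11180 regions whose H3K27ac signal the authors called as differing between Nrip1 KO and control myotubes, 84 had 1 of the 47 genes as the nearest protein-coding start. A further 47 regions were centred within 100 kb of a start of the 47 genes while the start of another gene was nearer. In total, 131 regions were examined.

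Most ligands of the TGF-beta family, among them TGF-betas, BMPs, activins, myostatin and many GDFs, bind pairs of type I and type II receptor kinases, which phosphorylate receptor-regulated Smads. These Smads join Smad4, enter the nucleus and bind DNA beside other factors, while follistatin, noggin, chordin and gremlin trap ligands outside the cell and the inhibitory Smads and the corepressors Ski and SnoN limit the response inside it. In skeletal muscle, myostatin and activins restrain growth through activin type II receptors, BMPs act in the opposite direction, and TGF-beta restrains myogenic differentiation. H3K27ac is histone H3 acetylated at lysine 27, a mark of active promoters and enhancers.

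The mark was mapped by CUT&RUN, in which an antibody directs a nuclease to marked chromatin and the released DNA is sequenced, to ask which sites gain or lose it without RIP140, the nuclear receptor coregulator that Nrip1 encodes. The 8 libraries fell into 4 groups of 2, namely Nrip1KO with the H3K27ac antibody, Nrip1KO with IgG, Ctrl with the H3K27ac antibody and Ctrl with IgG. All were made from primary myotubes, multinucleated muscle cells grown from satellite cells of gastrocnemius, after 4 days in differentiation medium. The KO came from C57BL/6J mice with floxed Nrip1 alleles and Cre driven by the muscle creatine kinase promoter as the study describes its myotubes (the labels do not name the Cre line), and controls were Cre-negative littermates, so loss of Nrip1 in culture depends on Cre being expressed as the cells differentiate. Whether the replicates were separate mice or cultures is not given in the sources used here, and, per the methods, nuclei were pooled before they were split over the antibodies.

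The deposited lists hold positions of regions that differed by 2-fold or more and no value per library. How deep each library was, how large each change was, how far replicates varied and what IgG gave are therefore unknown, every count below is a description with no test, and neither the labelled cell type nor the deletion can be checked by levels. Within 100 kb of Nrip1 itself there were 0 increased and 3 decreased regions, of which 2 lay in the gene, but on its chromosome 16 there were 780 decreased and 66 increased regions in all, so this count does not check the deletion. A region is called increased or decreased as the authors listed it in KO relative to control. Intervals on shares are 95% Wilson intervals, and the limit given beside a count of 0 is 3 counts of the total. Both cover counting error only, and regions close to each other are not independent.

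Around the pathway genes, decreased regions outnumbered increased ones. Of the 84 regions nearest to the 47 genes, 18 were increased and 66 decreased, so that 21.4% were increased (interval 14.0 to 31.3), against 35.0% of all regions. Of the 95 regions within 100 kb, 10 were increased and 85 decreased, or 10.5% increased, against 32.5% of all regions that lay within 100 kb of any protein-coding start. The direction of regions was uneven between chromosomes, and 9 of the genes sit on 4 chromosomes whose share of increased regions stood far from the 35.0% of the genome. These were Gdf6, Tgfbr1, Id3 and Ski on chromosome 4 (7.53% of its regions increased), Tgfb1 on chromosome 7 (97.7%), Gdf11 and Fstl3 on chromosome 10 (69.1%), and Fstl1 and Chrd on chromosome 16 (7.80%). The 9 genes had 20 decreased and 0 increased nearest regions, a count of 0 that, at 3 counts of the total, allows a share of up to 15.0%. Outside these 4 chromosomes, 18 of 64 nearest regions were increased (28.1%, interval 18.6 to 40.1), close to the 30.2% of all 7805 regions there, whereas within 100 kb 9 were increased and 56 decreased (13.8% against 27.8%). The part that the chromosomes play in the counts below was not tested.

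Counted by gene, 10 of the 47 genes had a nearest increased region (21.3%, against 10.7% of all protein-coding genes) and 23 had a nearest decreased region (48.9%, against 17.8%). Both directions were found at 5 of the 47 genes, namely Bmp2, Acvr2a, Ltbp1, Smad7 and Id2, against 673 of 21911 protein-coding genes. No nearest region was found at 19 of the 47, against 16350 of 21911. Within 100 kb, 7 genes had an increased region (14.9%, against 24.1%) and 30 had a decreased one (63.8%, against 42.7%). Of the 47 genes, 1 had an increased region centred within 1 kb of its start (Inhba, against 2.32% of all genes). For decreased regions it was also 1 of 47 (Gdf15, against 2.78%). Both counts are near the shares of all genes.

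**Figure D1:**
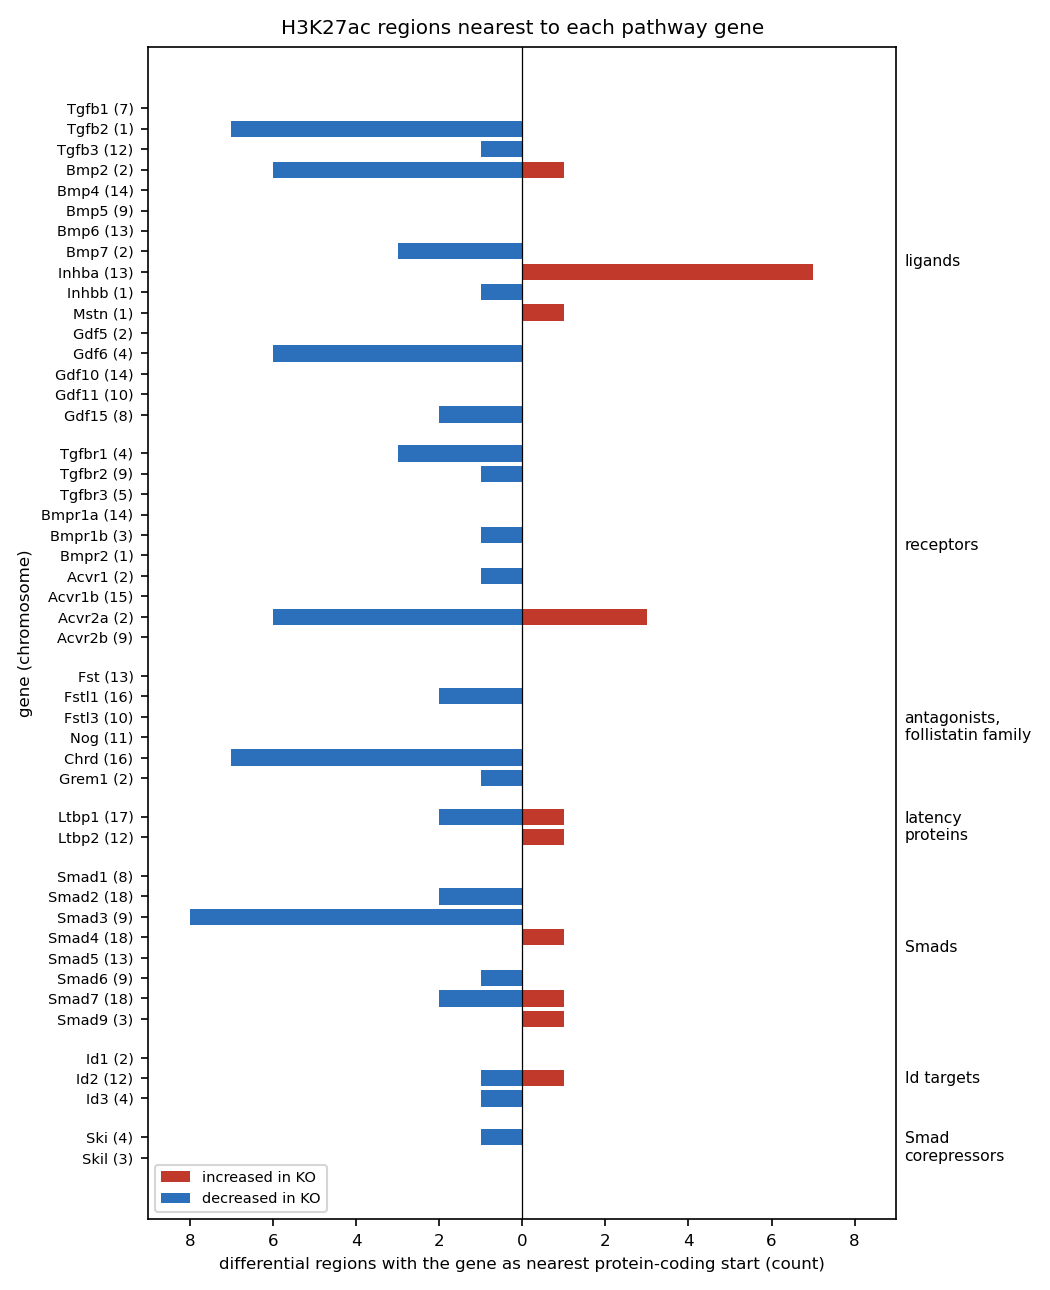
Number of increased (red, to the right) and decreased (blue, to the left) H3K27ac regions whose nearest protein-coding start belongs to each of the 47 genes, grouped by role, with the chromosome in brackets. Inhba has 7 increased and 0 decreased regions, Smad3 has 8 decreased and 0 increased regions, and 19 genes have no bar.

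The counts were concentrated in few genes, and counts over all protein-coding genes were uneven as well. Of 2336 protein-coding genes with a nearest increased region, 708 had at least 2, against 2 of 10 pathway genes. Of 3898 with a nearest decreased region, 1492 had at least 2, against 13 of 23 pathway genes. Whether the pathway genes differ from all genes in this respect was not tested. In the plot of counts by gene, the 7 genes with 6 or more nearest regions, namely Tgfb2, Bmp2, Inhba, Gdf6, Acvr2a, Chrd and Smad3, held 51 of the 84 regions, and 13 genes had 1 region each. With all annotated genes as candidates, the regions still nearest were 7 of 8 at Smad3 and 2 of 9 at Acvr2a. They were 1 of 7 each at Tgfb2, Bmp2 and Inhba, 0 of 6 at Gdf6 and 0 of 7 at Chrd.

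The sequences below show the DNA under 1 region of each of the 6 genes with at least 7 nearest regions. Each is a stretch of 100 bases, read from GRCm38.p6, the assembly of mm10, around the motif match nearest to the centre of the region that lies closest to the start of the gene, outside annotated exons. Capitals mark matches to CAGACA, the Smad-binding letters, to CAGCTG, an E-box of the type that MyoD binds, or to GGAATG, the TEAD letters, on either strand, where TGTCTG and CATTCC are the reverse complements of the first and the last.
Tgfb2, chr1:186716726-186716825, plus strand: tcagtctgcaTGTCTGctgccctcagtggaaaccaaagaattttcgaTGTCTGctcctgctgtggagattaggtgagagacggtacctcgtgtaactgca
Bmp2, chr2:133547292-133547391, plus strand: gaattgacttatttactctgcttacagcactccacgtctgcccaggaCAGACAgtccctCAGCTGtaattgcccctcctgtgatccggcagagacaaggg
Inhba, chr13:16012469-16012568, plus strand: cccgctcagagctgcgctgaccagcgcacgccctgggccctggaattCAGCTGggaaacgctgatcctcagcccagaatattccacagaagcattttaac
Acvr2a, chr2:48868886-48868985, plus strand: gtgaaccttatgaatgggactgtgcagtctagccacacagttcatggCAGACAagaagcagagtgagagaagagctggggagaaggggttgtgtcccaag
Chrd, chr16:20795144-20795243, plus strand: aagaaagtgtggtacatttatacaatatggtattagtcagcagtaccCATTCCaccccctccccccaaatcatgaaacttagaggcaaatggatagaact
Smad3, chr9:63708699-63708798, plus strand: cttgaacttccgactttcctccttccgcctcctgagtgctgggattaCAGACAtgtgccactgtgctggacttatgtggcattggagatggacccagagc

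The stretches differed in their letters. The 2 matches in the Tgfb2 stretch were both TGTCTG, the Bmp2 stretch held CAGACA and CAGCTG, those of Acvr2a and Smad3 held CAGACA, that of Inhba held CAGCTG, and that of Chrd held CATTCC. Repeats, as soft-masked in the assembly, made up 57% of the Smad3 and 77% of the Chrd stretch, 3% of that of Bmp2 and 0% of the others. A match describes letters in a window and does not show that a factor is bound. How often these letters occur in the central 500 bp of all regions is given further on. The printed Tgfb2 and Inhba matches lie outside that part of their regions and are not counted there.

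Among the 16 ligand genes, 9 increased and 26 decreased regions were nearest to a ligand, and Inhba stood out by direction. Inhba, which encodes the activin A subunit, had 7 increased and 0 decreased nearest regions, a count of increased regions that 51 of 21911 protein-coding genes (0.233%) reached or passed. The first of them, chr13:16010933-16013446, was 2514 bp wide, centred 338 bp downstream of a start of the gene, and spanned that start with 918 bp before it and 1595 bp after it. The Inhba stretch printed above lies within this region. The other 6 were intergenic and lay downstream, at 39590, 162420, 205366, 369777, 655107 and 688928 bp from the nearest Inhba start. The region at 655107 bp, 2736 bp wide, had been joined from 2 peaks, and 4 of the others had the shortest width of 501 bp. GC content was 51.0% in the region at the start and between 34.9% and 38.5% in the 6 distal regions. Inhba was the nearest protein-coding start over 1117 kb, and its 6.27 regions per Mb compared with 3.99 over all of chromosome 13, where 39.9% of regions were increased. No decreased region lay within 100 kb of Inhba. With all annotated genes as candidates, only 1 of the 7 increased regions remained nearest to Inhba. Inhbb, which encodes the activin B subunit, had 1 decreased region 31668 bp downstream of its start, and 2 more decreased regions within 100 kb were nearest to Ralb.

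The TGF-beta isoform genes had decreased regions or none. Tgfb2 had 7 decreased and 0 increased nearest regions, and 109 protein-coding genes (0.497%) had at least as many decreased ones. A group of 4 lay beyond the 3′ end of the gene, 166881 to 205354 bp downstream of the nearest start, 1 lay 43412 bp downstream, and 2 lay 11124 and 20132 bp upstream, the latter in an intron of Rrp15. Their widths were 768 to 2052 bp. The region at 188602 bp held 5 matches to CAGACA in its central 500 bp, and only 2 of the 7 regions held any. Tgfb2 had 20.3 regions per Mb against 3.95 for chromosome 1. Tgfb3 had 1 decreased region, 46234 bp downstream in an intron of Ttll5. Tgfb1 was nearest to no region. Of the 2 regions within 100 kb of Tgfb1, an increased one at 61064 bp was nearest to Hnrnpul1 and a decreased one at 37670 bp was nearest to Ccdc97, the latter being 1 of only 23 decreased regions on chromosome 7 beside 973 increased ones.

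Myostatin, the ligand best known for restraining muscle mass, had a single nearest region. It was increased, chr1:53119424-53120200, 777 bp wide and intergenic, 58155 bp downstream of the nearest Mstn start, with 48.6% GC content and 1 match to CAGACA in its central 500 bp. When all annotated genes were candidates, this region was nearest to Gm24349, whose start was 19762 bp away, and none remained nearest to Mstn. No region lay closer to Mstn, and the start of the gene lay in no differential region. Gdf11, which encodes the ligand closest to myostatin, was nearest to no region, and a decreased region 5307 bp upstream of its start was nearer to that of Cd63.

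Gdf15, which encodes a circulating ligand released by stressed cells, was the only gene of the 47 with a decreased region centred within 1 kb of a start. That region, chr8:70630396-70631896, was 1501 bp wide, lay in the gene with its centre 949 bp from a start and had the highest GC content of all nearest regions at 57.6%. A second decreased region lay 10668 bp upstream. Within 100 kb there were 6 decreased and 0 increased regions, of which 3 were nearest to Pgpep1 and 1 to Ssbp4. Gdf15 is the nearest start over only 19.4 kb, so that its 2 regions amounted to 103 per Mb.

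Among the BMP genes, Bmp2 had 6 decreased and 1 increased nearest region, spread over 494 kb of intergenic sequence. A decreased region lay 4910 bp upstream of the start, and the others lay downstream at 114446, 129019, 156787, 332120 and 488226 bp. The increased region, 501 bp wide at 324489 bp, was separated from the decreased region at 332120 bp by 7067 bp. GC content in the 7 regions ranged only from 40.7% to 43.6%. Bmp7 had 3 decreased regions, at 33161 bp in an intron of the gene and at 85487 and 106919 bp downstream, with GC contents of 51.5% to 56.1%. Another decreased region within 100 kb of Bmp7 lay at the start of Spo11. Bmp6 had 1 decreased region within 100 kb, nearest to Snrnp48. Bmp4 and Bmp5 had no region by either measure. Gdf6, which encodes a BMP-like ligand of joints and bone, had 6 decreased regions, all intergenic and 150202 to 514061 bp downstream, none within 100 kb. It lies on chromosome 4, where 811 of the regions were decreased and 66 increased. Gdf5 was nearest to none, although 5 decreased regions lay within 100 kb, 4 of them nearest to Uqcc1 and 1 to Gm15557. Gdf10 had no region by either measure.

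**Figure D2:**
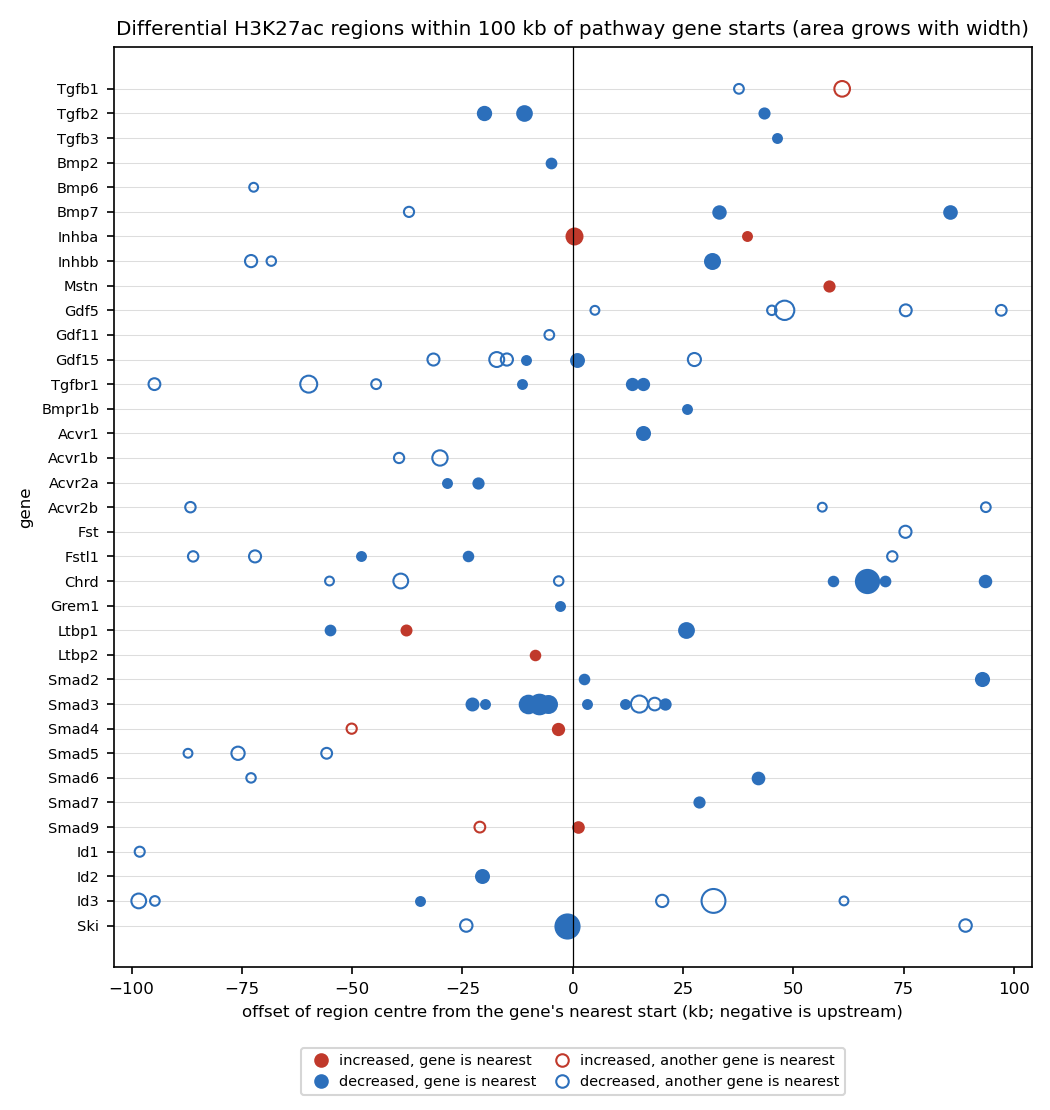
Position of each region within 100 kb of a start of the pathway genes, in kb from the nearest start of the gene (negative is upstream). Red marks increased and blue decreased regions, filled symbols mark regions to which the gene is the nearest protein-coding start and open symbols those nearer to another gene, and the 12 genes without a region are left out. Smad3 shows 10 decreased regions around its starts, and increased regions appear in the lines of Tgfb1, Inhba, Mstn, Ltbp1, Ltbp2, Smad4 and Smad9.

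The plot of positions shows that 47 of the 95 regions within 100 kb of the genes were nearer to another protein-coding start, 3 of them increased and 44 decreased. Conversely, 11 increased and 25 decreased regions had a pathway gene as the nearest start at over 100 kb. The 2 measures shared 48 regions.

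The 10 receptor genes had 3 increased and 12 decreased nearest regions, and all 3 increased ones belonged to Acvr2a. Acvr2a encodes a type II receptor for activins and myostatin. Its increased regions lay 415056, 1127539 and 1606874 bp upstream of the gene, among decreased regions at 389051, 593059, 727353 and 1004026 bp upstream. A further 2 decreased regions, 501 and 788 bp wide, lay in introns of Acvr2a, 28604 and 21436 bp before the nearest of its 2 annotated starts. Acvr2a is the nearest start over 1934 kb, and its 4.65 regions per Mb compared with 4.14 over chromosome 2. Of its 9 regions, 7 held CAGACA in the central 500 bp, against 41.6% of all increased and 46.8% of all decreased regions. Among the other genes with at least 7 nearest regions, it was in 2 of 7 at Tgfb2 and at Bmp2. It was in 3 of 7 at Inhba, 4 of 7 at Chrd and 4 of 8 at Smad3. Acvr2b, which encodes the other type II receptor of this kind, was nearest to no region. It had 3 decreased regions within 100 kb, each nearer to the start of another gene.

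Tgfbr1, which encodes the type I receptor of TGF-beta, had 3 decreased nearest regions at 11477 bp upstream and at 13378 and 15899 bp downstream, the last 2 in introns of the gene. It lies on chromosome 4, where 7.53% of regions were increased. The 3 other decreased regions within 100 kb were nearest to Col15a1. Tgfbr2, which encodes the type II receptor of TGF-beta, had 1 decreased region 106437 bp upstream. Acvr1 and Bmpr1b, which encode type I receptors for BMPs, had 1 decreased intronic region each, at 15924 and 25794 bp. Acvr1b, which encodes a type I receptor for activins, had 2 decreased regions within 100 kb, both nearest to its neighbour Acvrl1. Tgfbr3, Bmpr1a and Bmpr2 had no region by either measure. No increased region lay within 100 kb of a receptor gene, beside 15 decreased ones. Among all regions within 100 kb of any protein-coding start, 32.5% were increased. Outside chromosomes 4, 7, 10 and 16 the receptor genes had 0 increased and 9 decreased regions within 100 kb, against 27.8% increased for all genes there. The limit of 3 counts of the total, taken of only 9, lies above that share. This count of 0 therefore does not set the receptor genes apart.

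The 6 genes of antagonists and the follistatin family had 10 decreased and 0 increased nearest regions, a count of 0 that, at 3 counts of the total, allows a share of up to 30%, and 9 of the 10 lay on chromosome 16 at Chrd and Fstl1. Chrd encodes chordin, which binds BMPs. All 7 of its regions were decreased and lay within 62.5 kb, between 59075 and 120665 bp downstream of its nearest start. The widest of them, chr16:20799979-20805750, covered 5772 bp, had been joined from 2 peaks and was centred 521 bp from a start of the non-coding gene 4833419O12Rik. With all annotated genes as candidates, none of the 7 remained nearest to Chrd. Of the 7, 5 held GGAATG and 4 held CAGACA in the central 500 bp, against 27.3% and 46.8% of all decreased regions. GGAATG was in 3 of 7 regions at Bmp2 and at Inhba, 2 of 7 at Tgfb2, 2 of 8 at Smad3 and 2 of 9 at Acvr2a. A further 3 decreased regions upstream of Chrd lay at the starts of Eif4g1, Fam131a and Thpo. Chrd had 33.0 regions per Mb against 8.61 for chromosome 16, where 780 regions were decreased and 66 increased. Fstl1 had 2 decreased regions 23819 and 48077 bp upstream, and 3 more within 100 kb nearest to other genes. Grem1, which encodes the BMP antagonist gremlin, had 1 decreased region 2986 bp upstream. Fst, which encodes follistatin, a trap for activins and myostatin, was nearest to none, and its only region within 100 kb, a decreased one at 75408 bp, lay in an intron of Ndufs4. Fstl3 and Nog had none by either measure.

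Of the genes grouped as latency proteins, Ltbp1 encodes a protein that holds TGF-beta in the extracellular matrix. Ltbp1 had 1 increased region 37854 bp upstream of the gene and 2 decreased regions in its introns, at 55122 bp before and 25706 bp after the nearest of its 8 starts. The decreased region at 55122 bp held 28 matches to CAGACA in its central 500 bp, the most of any region nearest to the 47 genes, and 83.2% of it was soft-masked as repeat. Ltbp2 had 1 increased region, 8513 bp upstream, annotated as intronic.

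The 8 Smad genes had 3 increased and 13 decreased nearest regions. Smad3, which encodes a receptor-regulated Smad of the TGF-beta and activin branch, had 8 decreased and 0 increased nearest regions. At least as many decreased ones were found at 75 protein-coding genes (0.342%). Of these, 6 lay in introns of Smad3 and 2 lay 19940 and 22843 bp upstream of it. Another 2 decreased regions in the gene were nearer to the start of Aagab, so that 10 decreased regions lay within 134 kb. The 3 widest nearest regions covered 4015, 3142 and 2893 bp, and the 8 together covered 13592 bp. Their centres lay 3324 to 22843 bp from the nearest of 5 annotated Smad3 starts, none within 1 kb. Smad3 had 34.1 regions per Mb against 4.67 for chromosome 9, where 27.3% of regions were increased. With all annotated genes as candidates, 7 of the 8 remained nearest to Smad3.

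The other Smads had few regions. Smad2, of the same branch as Smad3, had 2 decreased nearest regions, 2666 bp downstream in an intron and 92721 bp downstream. Of the BMP branch, Smad9 had 1 increased region in an intron, centred 1087 bp from its start with its nearer edge 647 bp away, and Smad1 and Smad5 had none. Another increased region within 100 kb of Smad9 lay at the start of Exosc8, and 3 decreased regions within 100 kb of Smad5 were nearest to Tgfbi, itself a gene named for its induction by TGF-beta. Smad1 had no region by either measure. Smad4, which encodes the partner shared by both branches, had 1 increased region 3260 bp upstream of the nearest start, in an intron of the gene, and a second increased region within 100 kb lay at the start of Elac1. Smad6 and Smad7 encode the inhibitory Smads. Smad6 had 1 decreased region in an intron, 42033 bp downstream, and a second within 100 kb nearest to Lctl. Smad7 had an increased region 117244 bp upstream in an intron of Dym, and decreased regions 28670 bp downstream and 114525 bp downstream in an intron of Ctif.

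The Id genes encode inhibitors of MyoD-type factors and are direct targets of BMP signalling. Id1 was nearest to no region, and the only one within 100 kb, a decreased region 98138 bp upstream, was nearest to Rem1. Id2 had a decreased region 20633 bp upstream, 1517 bp wide and joined from 2 peaks, and an increased region 254734 bp upstream. Id3 had 1 nearest decreased region, 34572 bp upstream, and 5 more decreased regions within 100 kb. The widest of these covered 6165 bp and was nearest to E2f2. Of the corepressors, Ski had 1 nearest region, which was decreased and, at 6279 bp, the widest of all regions nearest to the 47 genes. It had been joined from 3 peaks and spanned 1 of the 3 annotated starts of Ski, with its centre 1395 bp upstream of that start. A further 2 decreased regions within 100 kb of Ski were nearest to Morn1 and Faap20. Skil had none by either measure. In all, 10 of the 47 genes, namely Bmp4, Bmp5, Gdf10, Tgfbr3, Bmpr1a, Bmpr2, Fstl3, Nog, Smad1 and Skil, had no region by either measure.

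The length of chromosome that each gene covers was compared next. The starts of the pathway genes were the nearest protein-coding ones over a median length of 167 kb, against 45.1 kb for all protein-coding genes. They had 7.30 nearest regions per Mb against 4.10 for all genes, and outside chromosomes 4, 7, 10 and 16 they had 6.24 against 3.56. Among genes covering 100 to 500 kb, 4 of 24 pathway genes had an increased region, against 21.9% of all genes of that length, and 13 of 24 had a decreased one, against 32.8%. Among those covering 20 to 100 kb, 2 of 15 had an increased region (all genes 6.42%) and 5 of 15 a decreased one (14.9%). Over 500 kb, 4 of 5 had an increased region (41.7%) and 4 of 5 a decreased one (40.1%), and below 20 kb, 0 of 3 (2.35%) and 1 of 3 (5.06%). Across all genes, the share with a region was higher the longer the stretch covered, and the part of this length in the counts of the pathway genes was not tested.

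**Figure D3:**
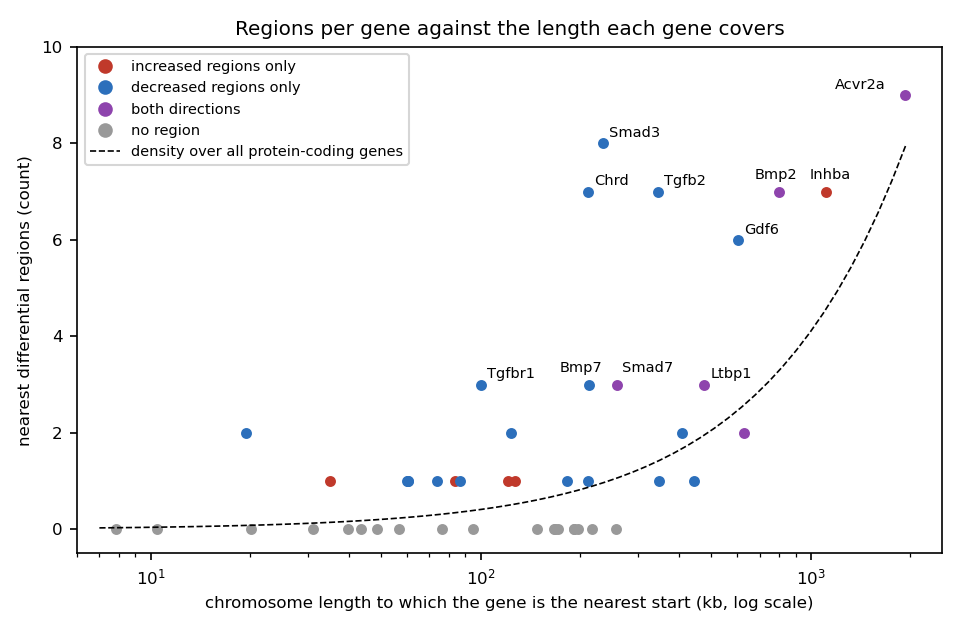
Number of nearest differential regions of each of the 47 genes against the chromosome length for which its start is the nearest protein-coding one (kb, log scale). The dashed line is the density over all protein-coding genes, 4.10 regions per Mb; Smad3, Chrd and Tgfb2 lie well above it, and Acvr2a lies close to it.

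The plot of counts against length shows that the genes with 6 or more regions differed in this respect. Smad3, Chrd and Tgfb2 reached 7 or 8 regions over 212 to 344 kb, while Inhba, Bmp2 and Gdf6 collected 6 or 7 over 603 to 1117 kb.

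A second list of 65 genes of the same pathway, among them further ligands, receptors, co-receptors, matrix regulators and targets, gave the context. Of these, 12 had a nearest increased region (18.5%, against 10.7% of all protein-coding genes) and 17 a nearest decreased one (26.2%, against 17.8%). Their 6.45 nearest regions per Mb compared with 7.30 for the 47 genes and 4.10 for all genes, and outside chromosomes 4, 7, 10 and 16 the values were 5.02, 6.24 and 3.56, so a density above that of all genes was found in both lists. They had 32 increased and 36 decreased nearest regions, 17 of the increased ones at Rgma, a BMP co-receptor gene on chromosome 7. Outside chromosomes 4, 7, 10 and 16 they had 12 increased and 32 decreased. Thbs1, which encodes the TGF-beta activator thrombospondin-1, had 8 decreased and 2 increased regions. The others with at least 3 were Bmper (3 decreased, 1 increased), Rgmb (3 and 2), Nedd4l (2 and 2), Ccn2 (2 and 1), Fstl4 (3 and 0) and Tgfbi (3 and 0).

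**Figure D4:**
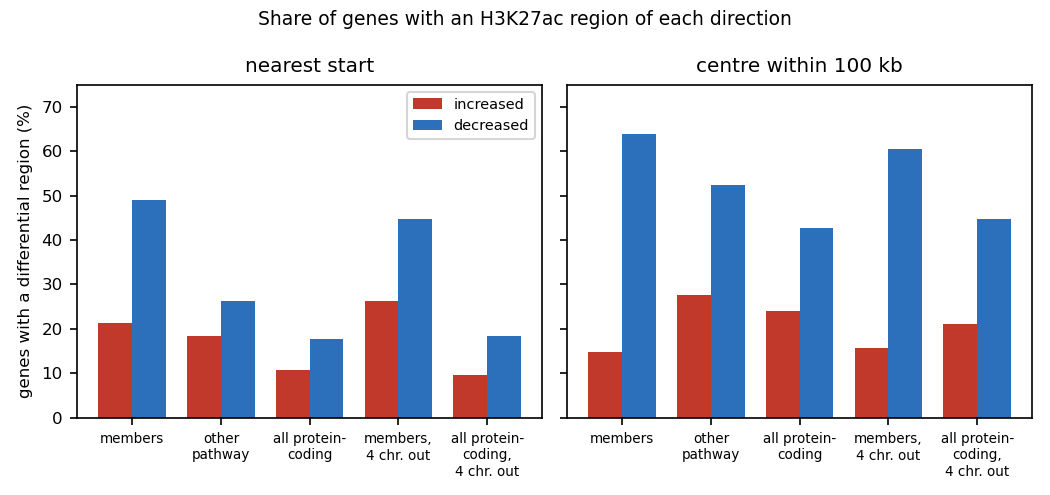
Share of genes (%) with at least 1 increased (red) or decreased (blue) H3K27ac region, by nearest protein-coding start (left) and within 100 kb of a start (right), for the 47 genes, the 65 other pathway genes, all protein-coding genes, and the 47 genes and all genes without chromosomes 4, 7, 10 and 16. By nearest start, 48.9% of the 47 genes have a decreased region against 17.8% of all genes, and without the 4 chromosomes 44.7% against 18.3%.

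As the plot of shares shows, the share of genes with a decreased region stayed above that of all genes without the 4 chromosomes, at 44.7% by nearest start and 60.5% within 100 kb, against 18.3% and 44.7%. The share with an increased region was 26.3% against 9.64% by nearest start and 15.8% against 21.2% within 100 kb, so for increased regions the order depended on the measure.

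The regions nearest to the pathway genes lay farther from starts than regions in general, and these genes also cover longer stretches (median 167 kb against 45.1 kb). Of the 18 increased regions, 7 belonged to Inhba and 3 to Acvr2a, which cover 1117 and 1934 kb. The part of this length, and of these 2 genes, in the distances and positions was not tested. The median distance was 183893 bp for the 18 increased ones, against 25062 bp for all increased regions, and 47155.5 bp for the 66 decreased ones, against 17115 bp. Of the increased ones, 11 (61.1%) were intergenic and 6 (33.3%) intronic, and of the decreased ones 40 (60.6%) and 24 (36.4%), against 35.9% and 46.2% of all increased and 33.0% and 51.7% of all decreased regions. By role, the median distance was 156787 bp for ligands, 106437 bp for receptors, 68727 bp for antagonists and 15946.5 bp for Smads, of whose 16 regions 12 were intronic. Median widths were 789.5 bp for increased and 990.5 bp for decreased regions, against 777 and 863.5 bp for all regions. The mean GC content was 42.6% ± 5.80 (SD over 18 regions) for increased and 46.1% ± 5.13 (SD over 66 regions) for decreased regions, against 43.5% ± 5.56 and 48.0% ± 5.28 over all regions, so the sets overlapped widely.

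**Figure D5:**
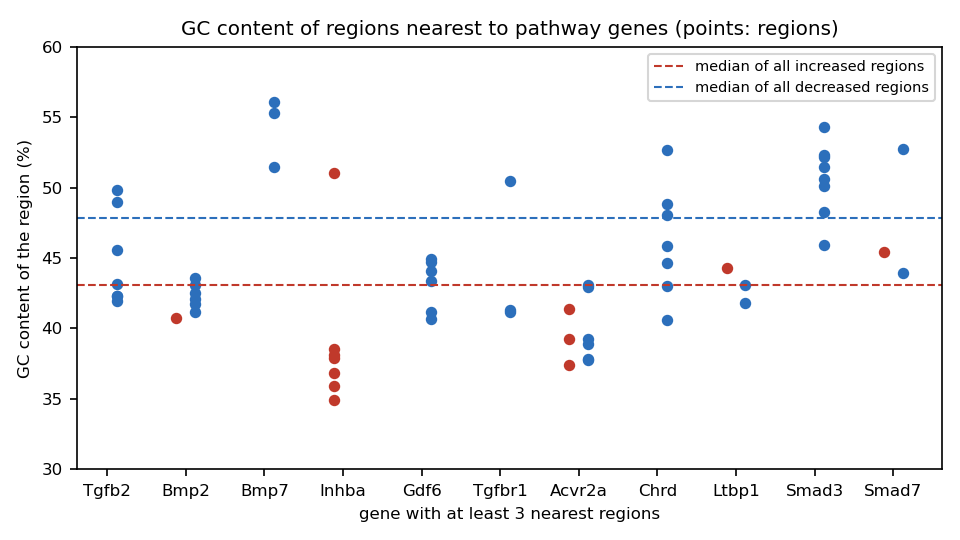
GC content (%) of every region nearest to the 11 pathway genes with at least 3 nearest regions. Red points are increased and blue points decreased regions, and the dashed lines are the medians of all increased (43.1%) and all decreased (47.9%) regions; the 6 distal Inhba regions lie between 34.9% and 38.5%, and Smad3 regions between 45.9% and 54.3%.

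In the plot of GC content, the range within a gene was narrow at some genes and wide at others. Bmp2 regions of both directions lay within 40.7% to 43.6%, and Acvr2a regions of both directions within 37.4% to 43.1%. Wider ranges were found at Chrd (40.6% to 52.7%), Tgfbr1 (41.2% to 50.5%) and Smad7 (43.9% to 52.7%). The 8 Smad3 regions had a median of 51.0%, and 1 of the 7 Inhba regions, that at the start, lay above the median of all increased regions.

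The letters of 6 motifs were searched for in the central 500 bp of every region on both strands. CAGACA was found in 9 of 18 increased regions nearest to the pathway genes (all increased regions 41.6%) and in 31 of 66 decreased ones (all decreased regions 46.8%). CAGCTG was found in 27.8% and 31.8%, against 28.8% and 37.9% of all regions of the same direction. TGACTCA, the AP-1 letters, was found in 16.7% and 13.6%, against 16.6% and 12.8%. GGAATG was found in 8 of 18 increased (44.4%, against 30.7%) and 21 of 66 decreased regions (31.8%, against 27.3%). GGCGCC, a GC-rich Smad element, was in none of them, which allows shares of up to 16.7% and 4.55%, against 2.66% and 2.53% of all regions. The same letters followed after 5 bases by GTCT, as in BMP response elements, were in 0 of 3917 increased regions and 1 of 7262 decreased ones. No difference in these shares was tested.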

How the data were processed

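CUT&RUN libraries for H3K27ac and IgG had been made from Nrip1KO and Ctrl primary myotubes, 2 per group. Per the labels and the study's methods, the authors aligned reads to mm10 with BWA-MEM2 (BWA 2.2.1), called broad peaks with HOMER 4.11 and listed regions with a peak intensity at least 2-fold apart. How replicates and IgG entered the calls is not stated. The labels and the methods name different suppliers of the H3K27ac antibody, which could not be settled. The 2 deposited lists are intervals without a header. The deposited score is constant and was not used, and no value per library was used here, so the precision per library is unknown. A difference in depth, reaction efficiency or DNA copy number between cultures would enter the lists.

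Positions are counted from 1. All regions on chromosomes fell within GRCm38.p6, and 1 region on an unplaced sequence was kept in the totals only. A region was assigned to the nearest transcript start of any protein-coding gene (GENCODE M21) from its centre, or to all genes with a start within 100 kb. Promoter-proximal meant a centre within 1 kb of a start. GC content covered the whole region and motifs were exact letters. Python 3.11.15, SciPy 1.17.1 and Matplotlib 3.10.9 were used, and the assignment, merging and CAGACA search steps were tested on simulated data. The 47 genes, their roles, the list of 65 genes and chromosomes 4, 7, 10 and 16 were chosen with earlier results of these data known. By rule, the text describes in full genes with 3 or more nearest regions, with regions of both directions or with a region within 1 kb of a start, and Mstn, Fst, Acvr2b, Smad3, Smad7, Id1 and Tgfb1, which makes 18, and gives the others by their counts and positions. Other genes are named where they are nearest to a region described. In 1 case such a gene is left unnamed. No group test was possible, and alternatives changed the candidate genes, the window, the region width, merging and the chromosomes.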

Additional observations from a re-analysis of the deposited data

How the results depend on the processing

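The limits of these counts lie in lists without values per library, so no setting tests the difference between KO and control itself. No paired analysis was possible because the lists carry no value per replicate, and for the same reason no replicate could be left out. In every setting tried for nearest regions and for windows, decreased regions outnumbered increased ones at the pathway genes, an order that the whole lists share (7263 and 3917). The counts depended most on which starts could be nearest. With all annotated genes as candidates, 2 increased and 26 decreased regions remained nearest (7.14% increased), and 2 genes had an increased one. When nearest starts over 100 kb away were left out, 7 increased and 41 decreased regions remained, at 6 genes for increased ones. A window of 50 kb gave 54 decreased regions, and 1 of 250 kb gave 28 increased and 160 decreased regions, with an increased one at 15 genes. Among regions at least 1 kb wide, 6 increased and 33 decreased were nearest, with an increased one at 4 genes, and within 100 kb 3 increased and 41 decreased regions were left, at 3 and 19 genes. Without chromosomes 4, 7, 10 and 16, 56 decreased regions lay within 100 kb. The 2 promoter-proximal regions became 4 at 2.5 kb, 4 with any base of the region within 1 kb, and 0 at 0.1 kb. These 22 values followed from the narrower or wider definitions, and the 40 others stayed within 1.5 times the reported count or within the interval of the reported share. The matching shares over all protein-coding genes or all regions are not given beside these counts. The counts therefore show how the definitions act and do not compare the pathway genes with all genes.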
